A study of Homo sapiens with 24 samples.

Results

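The luminal breast transcription factors FOXA1, GATA3, TFAP2A, TFAP2B, TFAP2C, SPDEF, ELF3 and GRHL2, together with the epithelial splicing regulator ESRP1, were followed by RNA-seq in SKBr3 cells, an established HER2-positive human breast cancer line. Members were the rows of the read-count table that carry these symbols, and all 9 were found among 14493 genes. The 24 libraries formed 8 groups of 3: untreated cells of day 0 and of day 7, and cells collected at day 7 of treatment with refeeding at day 3. This is the design used for therapy-induced senescence (TIS). The labels call the day-0 cells proliferative controls and the day-7 cells control cells, and name refeeding for the drug groups alone. In a difference between a drug group and an untreated group, drug and refeeding therefore cannot be told apart. The drugs were ND-646 at 250 nmol/L, an inhibitor of acetyl-CoA carboxylase, TVB-3166 at 250 nmol/L, an inhibitor of fatty acid synthase, bleomycin at 10 umol/L and doxorubicin at 10 nmol/L, which damage DNA, alisertib at 500 nmol/L, an Aurora kinase A inhibitor, and palbociclib (Palboclib in the labels) at 1 umol/L, an inhibitor of the cell-cycle kinases CDK4 and CDK6. ND-646 and TVB-3166 cells are named FASTIS, for senescence under blocked fatty acid synthesis. All groups come from a single cell line, and the labels do not say whether the replicates were separate cultures, so the p-values measure the spread between these libraries, which may be technical. A bulk library cannot tell fewer cells of a kind from less RNA per cell.

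FOXA1 and GATA3 are the factors that open and hold the enhancers of luminal mammary cells, where they work with the estrogen receptor. TFAP2A, TFAP2B and TFAP2C are AP-2 proteins that bind a shared palindromic motif and have long been studied as activators of ERBB2 in breast cancer. SPDEF and ELF3 are ETS-family factors of secretory and barrier epithelia, GRHL2 is a grainyhead factor that maintains cell junctions, and ESRP1 is an RNA-binding protein that directs epithelial splice forms. The comparisons ask how this epithelial program stood in each drug-treated population against untreated cells. They also ask whether FASTIS cells differed in it from cells treated with the other drugs. The labels do not give the share of senescent cells in a library.

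By the gene annotation on GRCh37, FOXA1 lies at chr14:38058757-38065264, GATA3 at chr10:8087341-8117161, TFAP2A at chr6:10393419-10419892, TFAP2B at chr6:50786436-50815332, TFAP2C at chr20:55204362-55214339, SPDEF at chr6:34505579-34524110 and ELF3 at chr1:201977073-201986311. RefSeq promoter windows (GRCh38.p14) matched 6 of the 9 members. The 250 bases before the transcription start are shown 5′ to 3′ for the members with a single window, because ELF3 rose in most drug groups, TFAP2B fell in all of them, and SPDEF and FOXA1 followed each other over the libraries. Capitals mark matches, on either strand, to short letters known for AP-2, FOXA, GATA, ETS and grainyhead proteins or for the TATA box, which do not overlap here and were chosen after these windows had been seen.
ELF3, chr1:202010337-202010586 (plus strand): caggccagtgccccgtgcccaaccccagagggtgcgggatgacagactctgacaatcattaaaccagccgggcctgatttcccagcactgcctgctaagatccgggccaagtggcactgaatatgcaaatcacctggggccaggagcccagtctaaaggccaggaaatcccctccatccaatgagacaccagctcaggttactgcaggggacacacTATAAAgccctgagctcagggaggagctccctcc
TFAP2B, chr6:50818621-50818870 (plus strand): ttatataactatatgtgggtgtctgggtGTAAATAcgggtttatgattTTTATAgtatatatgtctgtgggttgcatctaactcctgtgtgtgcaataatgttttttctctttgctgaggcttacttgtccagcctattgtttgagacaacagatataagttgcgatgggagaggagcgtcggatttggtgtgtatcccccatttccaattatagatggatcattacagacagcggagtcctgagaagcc
SPDEF, chr6:34556330-34556579 (minus strand): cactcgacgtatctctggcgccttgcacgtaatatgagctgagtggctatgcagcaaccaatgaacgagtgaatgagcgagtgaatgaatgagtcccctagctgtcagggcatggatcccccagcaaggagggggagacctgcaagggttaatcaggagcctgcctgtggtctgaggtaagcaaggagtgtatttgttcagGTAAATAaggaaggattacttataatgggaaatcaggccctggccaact
FOXA1, chr14:37595250-37595499 (minus strand): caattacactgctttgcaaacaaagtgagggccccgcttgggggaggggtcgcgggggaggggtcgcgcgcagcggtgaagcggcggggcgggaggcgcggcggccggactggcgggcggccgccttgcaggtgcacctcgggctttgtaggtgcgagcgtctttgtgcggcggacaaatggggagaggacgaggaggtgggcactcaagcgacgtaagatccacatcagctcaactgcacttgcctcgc
The share of 35116 RefSeq windows of this length holding a motif on either strand was 10.7% for the TATA box letters TATAAA. It was 9.58% for the FOXA letters TNTTTAC. The ETS letters CGGAAG were found in 16.5% of the windows. The GATA letters NGATAA were found in 20.4% of them. AP-2 letters GCCNNNGGC occurred in 19.8% and grainyhead letters AACCNGTT in 1.49%. The ELF3 window held the TATA letters from 34 bases before the start. The SPDEF window held the FOXA letters from 49 bases before the start. In the TFAP2B window the FOXA letters began 222 bases and the TATA letters 202 bases before the start, and the FOXA1 window held none of the searched letters. Of the 6 GATA3 windows, 3 held the AP-2 letters. A match describes these letters and shows no binding.

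Total counts ranged from 29405121 to 44316330 per library, so counting error was small for all members but TFAP2B. Replicate 1 of ND-646 stood apart from the others of its group: its scaling factor was 0.791 against 0.951 and 0.938. Its difference from its group mates ran with transcript length, lower for longer transcripts (Spearman's rho = -0.65 over 12160 genes, which are not independent replicates), whereas rho lay between -0.28 and 0.42 in the libraries of the other 7 groups. Replicate 1 of untreated day 0 also stood apart, with a scaling factor of 0.895 against 0.994 and 1.02 and a rho of 0.079. Where leaving out either of them changed the call of a member, the value without it is given. ERBB2, amplified in this line, was measured at 7049 ± 460 CPM (the TMM-scaled read count relative to library size, mean ± SD, n = 3) at day 0. The luminal keratins KRT8, KRT18 and KRT19 stood at 5486 ± 524, 2465 ± 195 and 3243 ± 555 CPM. ESR1, CDH1 and the basal keratins KRT5 and KRT14 are not analysed here.

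Per kilobase of the canonical transcript, SPDEF and ELF3 were the most abundant members in proliferating cells, at 160.5 ± 25.1 and 131 ± 8.56 CPM per kb at day 0. TFAP2C, FOXA1, TFAP2A and GATA3 formed a middle range, at 65.5 ± 11.5, 63.5 ± 4.18, 47.4 ± 3.99 and 46.6 ± 2.0 CPM per kb. ESRP1 and GRHL2 were lower, at 9.99 ± 0.516 and 9.29 ± 1.93 CPM per kb. TFAP2B was almost silent, at 0.554 ± 0.0717 CPM per kb.

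FOXA1, the pioneer factor of the luminal program, was lower after bleomycin, doxorubicin and palbociclib while no difference passed the test under either FASTIS drug or alisertib. Its replicates gave 218, 211 and 239 CPM in untreated day 0, 223, 179 and 218 CPM in untreated day 7, 238, 208 and 209.9 CPM in ND-646 and 266, 228 and 214 CPM in TVB-3166. They gave 181, 153 and 148 CPM in bleomycin, 241, 222 and 222 CPM in alisertib, 194, 191 and 174 CPM in doxorubicin and 200.2, 178 and 171 CPM in palbociclib. The bleomycin, doxorubicin and palbociclib libraries all lay below the day-0 libraries, while the FASTIS and alisertib libraries overlapped them. The log2 fold change against day 0 was -0.47 ± 0.11, adjusted p = 0.00661 for bleomycin, -0.28 ± 0.10, adjusted p = 0.030 for palbociclib and -0.25 ± 0.089, adjusted p = 0.0424 for doxorubicin (± SE, edgeR's quasi-likelihood test, Benjamini-Hochberg over all genes tested). Under ND-646, TVB-3166 and alisertib it was -0.034, 0.09 and 0.029 (adjusted p = 0.869, 0.492 and 0.816). Against day 7 only the fall under bleomycin passed the test, at -0.35 ± 0.12, adjusted p = 0.0338. The doxorubicin call was lost when any library but day-0 replicate 1 was left out (log2 fold changes -0.29 to -0.19, adjusted p = 0.0575 to 0.159), with at least 10 counts required in every library (adjusted p = 0.0595) and with all 24 libraries in a single fit (0.0505). That of palbociclib was lost without palbociclib replicate 2 or 3 or day-0 replicate 3 (log2 fold changes -0.25 to -0.23, adjusted p = 0.0903 to 0.116), and that of bleomycin against day 7 without bleomycin replicate 2 or 3 or day-7 replicate 1 or 3 (log2 fold changes -0.32 to -0.29, adjusted p = 0.0842 to 0.121). Palbociclib against day 7 (-0.16 ± 0.10, adjusted p = 0.210) passed the test without day-7 replicate 2 (log2 fold change -0.25, adjusted p = 0.0390). TTC6, which overlaps FOXA1 on the other strand by 431 bases, was at most 7.26 CPM in any group mean.

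GATA3, which specifies and maintains the luminal fate, moved in opposite directions between drugs. Its level was 149, 137 and 145 CPM in untreated day 0 and 153, 122 and 143 CPM in untreated day 7. It was 84.5, 94.2 and 88.0 CPM in ND-646, 120.3, 104 and 118 CPM in TVB-3166, 97.5, 68.2 and 89.3 CPM in bleomycin and 110, 126 and 113 CPM in doxorubicin, whereas alisertib gave 129, 123 and 135 CPM and palbociclib 172, 164 and 167 CPM. All 3 palbociclib libraries lay above every other library in the study, and all ND-646, TVB-3166, bleomycin and doxorubicin libraries lay below the day-0 libraries. Against day 0, GATA3 fell 1.68-fold in bleomycin (log2 fold change -0.75 ± 0.13, adjusted p = 0.00134) and 1.62-fold in ND-646 (-0.70 ± 0.13, adjusted p = 0.00340). Smaller falls passed the test in TVB-3166 (-0.33 ± 0.094, adjusted p = 0.0118) and doxorubicin (-0.29 ± 0.088, adjusted p = 0.0203). In palbociclib it rose 1.17-fold (0.22 ± 0.083, adjusted p = 0.0410). Alisertib gave -0.16 ± 0.081, adjusted p = 0.145.

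Compared directly, GATA3 was higher in palbociclib than in the 4 groups where it fell. The difference was 0.98 ± 0.12, adjusted p = 0.000811 against bleomycin, where 30.6% of all genes were called in either direction, and 0.92 ± 0.11, adjusted p = 0.00154 against ND-646 (25.2% of all genes called). It was 0.56 ± 0.078, adjusted p = 0.000228 against TVB-3166 (40.2% called) and 0.52 ± 0.076, adjusted p = 0.00103 against doxorubicin (25.0% called). The rise against day 0 itself was fragile: it was lost without any of the 3 palbociclib libraries or day-0 replicate 2 or 3 (log2 fold changes 0.20 to 0.25, adjusted p = 0.0699 to 0.134), and with all 24 libraries in a single fit (adjusted p = 0.0888). The rise against day 7, given next, was lost in that fit too (adjusted p = 0.0574). The fall under TVB-3166 was lost without TVB-3166 replicate 2 (log2 fold change -0.27, adjusted p = 0.0658) and that under doxorubicin without doxorubicin replicate 1 or 3 (log2 fold changes -0.27 to -0.26, adjusted p = 0.0769 to 0.0946). Against day 7 the falls in ND-646, TVB-3166 and bleomycin and the rise in palbociclib again passed the test, at -0.65, -0.29, -0.70 and 0.28 (adjusted p = 0.00672, 0.0289, 0.00341 and 0.0259). Of these, TVB-3166 was lost without TVB-3166 replicate 2 or 3 or day-7 replicate 1 or 3 (log2 fold changes -0.31 to -0.21, adjusted p = 0.0573 to 0.115) and palbociclib without palbociclib replicate 1 or 3 or day-7 replicate 2 or 3 (log2 fold changes 0.19 to 0.30, adjusted p = 0.0561 to 0.0825). Doxorubicin gave -0.24 ± 0.10, adjusted p = 0.0684, and passed the test without doxorubicin replicate 2 or day-7 replicate 2 (log2 fold changes -0.34 to -0.30, adjusted p = 0.0112 to 0.0326).

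Within the AP-2 family the 3 genes gave different patterns of calls. TFAP2B, the member with the lowest level, fell in all 6 drug groups. Its raw counts were 131, 83 and 114 in untreated day 0 and 200, 87 and 95 in untreated day 7. They were 5, 7 and 14 in ND-646, 33, 25 and 28 in TVB-3166, 33, 15 and 29 in bleomycin, 53, 54 and 76 in alisertib, 82, 63 and 38 in doxorubicin and 63, 27 and 30 in palbociclib. On the scaled values, every drug library lay below every untreated library. Mean CPM was 3.12 ± 0.404 at day 0, 3.26 ± 1.03 at day 7 and 0.318 ± 0.151 in ND-646, the lowest group. Relative to day 0 the log2 fold change was -3.27 ± 0.37, adjusted p = 0.000279 for ND-646, a 9.62-fold fall, -1.91 ± 0.32, adjusted p = 0.00112 for bleomycin and -1.71 ± 0.25, adjusted p = 0.000171 for TVB-3166. It was -1.38 ± 0.31, adjusted p = 0.00380 for palbociclib, -0.98 ± 0.21, adjusted p = 0.00547 for alisertib and -0.93 ± 0.25, adjusted p = 0.0109 for doxorubicin. With both replicate 1 libraries that stood apart left out, ND-646 gave -3.02 (adjusted p = 8.90e-07). Against day 7 the 6 values ran from -3.33 in ND-646 to -0.98 in doxorubicin and all passed the test (adjusted p = 0.000320 for TVB-3166, the lowest, to 0.0161 for alisertib, the highest). Of these, alisertib was lost without alisertib replicate 2 or 3 or day-7 replicate 1 (log2 fold changes -1.06 to -0.75, adjusted p = 0.0506 to 0.0623) and doxorubicin without day-7 replicate 1 (log2 fold change -0.69, adjusted p = 0.0679).

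TFAP2C, the AP-2 protein most tied to ERBB2 in HER2-positive cells, fell under both FASTIS drugs and palbociclib. Its replicates gave 151, 197 and 214 CPM in untreated day 0 and 201, 168 and 203 CPM in untreated day 7, against 121, 94.4 and 107 CPM in ND-646, 139.6, 117 and 104 CPM in TVB-3166 and 129, 122 and 119.9 CPM in palbociclib. These 3 groups lay below all untreated libraries. Bleomycin gave 158, 192 and 177 CPM, alisertib 172, 143 and 149.6 CPM and doxorubicin 174, 164 and 164 CPM, and these overlapped the day-0 range. Against day 0 the log2 fold change was -0.81 ± 0.17, adjusted p = 0.00652 for ND-646, -0.63 ± 0.14, adjusted p = 0.00309 for TVB-3166 and -0.60 ± 0.12, adjusted p = 0.00226 for palbociclib. Each of these was called without each library in turn, and against day 7 they stood at -0.83, -0.66 and -0.61 (adjusted p = 0.00301, 0.000601 and 0.000241). Bleomycin, alisertib and doxorubicin gave -0.087, -0.28 and -0.15 against day 0 (adjusted p = 0.648, 0.114 and 0.336). Alisertib and doxorubicin passed the test when day-0 replicate 1, the lowest TFAP2C value of that group, was left out (log2 fold change -0.40, adjusted p = 0.00479, and log2 fold change -0.30, adjusted p = 0.0156). Against day 7 the alisertib difference (-0.29 ± 0.10, adjusted p = 0.0570) passed the test without alisertib replicate 1 or day-7 replicate 2 (log2 fold changes -0.38 to -0.37, adjusted p = 0.0148 to 0.0292), and the doxorubicin difference (-0.16 ± 0.089, adjusted p = 0.155) without day-7 replicate 2 (log2 fold change -0.27, adjusted p = 0.0241). ERBB2 itself gave no call in any drug group against day 0, with log2 fold changes from -0.30 in bleomycin to 0.24 in TVB-3166 (adjusted p = 0.149 and 0.138).

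TFAP2A, the founding AP-2 member, gave the fewest calls of the 9 members against the untreated groups, both in bleomycin. Its replicates gave 157, 134 and 155 CPM in untreated day 0, 165, 138 and 160.4 CPM in untreated day 7, 111, 133 and 140.4 CPM in ND-646, 176, 169 and 176 CPM in TVB-3166 and 121, 109 and 119.8 CPM in bleomycin. Alisertib, doxorubicin and palbociclib had group means of 174 ± 4.64, 143 ± 9.74 and 146 ± 4.66 CPM. It was called lower under bleomycin, whose libraries lay below all untreated libraries, at -0.35 ± 0.10, adjusted p = 0.0181 against day 0 and -0.39 ± 0.10, adjusted p = 0.00965 against day 7. The day-0 value lost its call without bleomycin replicate 2 or 3 or day-0 replicate 3 (log2 fold changes -0.36 to -0.31, adjusted p = 0.0533 to 0.0708). TVB-3166 and alisertib libraries lay above all day-0 libraries without passing the test (log2 fold change 0.23 ± 0.094, adjusted p = 0.0620, and 0.22 ± 0.088, adjusted p = 0.0769), and passed it without day-0 replicate 1 (log2 fold change 0.26, adjusted p = 0.0344, and log2 fold change 0.27, adjusted p = 0.0330). TFAP2A-AS1 and TFAP2A-AS2 overlap the gene on the other strand and stood at or below 1.31 CPM in every group mean. The use of strand in the counting is not given in the sources used here, so reads of a gene and its antisense partner cannot be told apart.

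Of the ETS factors, SPDEF fell under bleomycin, doxorubicin and palbociclib, as FOXA1 did. Its replicates gave 350, 315 and 255 CPM in untreated day 0, 305, 268 and 274 CPM in untreated day 7, 388, 257 and 264 CPM in ND-646 and 401, 330.1 and 326 CPM in TVB-3166. They gave 209, 166 and 146 CPM in bleomycin, 272, 292 and 255 CPM in alisertib, 189.9, 207 and 144 CPM in doxorubicin and 175, 204 and 153 CPM in palbociclib. Every bleomycin, doxorubicin and palbociclib library lay below every untreated, FASTIS and alisertib library. The log2 fold change against day 0 was -0.81 ± 0.16, adjusted p = 0.00239 for bleomycin, -0.79 ± 0.13, adjusted p = 0.000640 for palbociclib and -0.76 ± 0.15, adjusted p = 0.00256 for doxorubicin, and against day 7 it was -0.69, -0.66 and -0.62 (adjusted p = 0.00285, 0.000386 and 0.00149). These 6 calls were kept without each library in turn. ND-646 gave -0.024 ± 0.20, adjusted p = 0.938 against day 0, and -0.24 (adjusted p = 0.177) without replicate 1, its highest library. TVB-3166 gave 0.21 ± 0.13, adjusted p = 0.204 against day 0 and was higher than day 7 (0.32 ± 0.10, adjusted p = 0.0161), a call lost without TVB-3166 replicate 1 or day-7 replicate 3 (log2 fold changes 0.22 to 0.30, adjusted p = 0.0580 to 0.0661) and in the single fit of all 24 libraries (adjusted p = 0.131). The day-0 difference of TVB-3166 passed the test without day-0 replicate 1 (log2 fold change 0.31, adjusted p = 0.0428), and that of alisertib (-0.17 ± 0.12, adjusted p = 0.280) without day-0 replicate 3 (log2 fold change -0.29, adjusted p = 0.0498).

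ELF3 showed the largest rise of the members. Its replicates gave 377, 422 and 423 CPM in untreated day 0, 343, 319 and 364 CPM in untreated day 7, 1045, 839 and 797 CPM in ND-646 and 677, 691 and 625 CPM in TVB-3166. They gave 675, 883 and 791 CPM in bleomycin, 389, 349.7 and 375 CPM in alisertib, 696, 635 and 639 CPM in doxorubicin and 587, 586 and 577 CPM in palbociclib. In 5 drug groups every library lay above every untreated library, and the alisertib libraries lay among them. Against day 0, ELF3 rose 2.18-fold in ND-646 (log2 fold change 1.13 ± 0.17, adjusted p = 0.00118), 1.93-fold in bleomycin (0.95 ± 0.13, adjusted p = 0.000427) and 1.64-fold in TVB-3166 (0.71 ± 0.10, adjusted p = 0.000150). It rose 1.62-fold in doxorubicin (0.70 ± 0.10, adjusted p = 0.000423) and 1.43-fold in palbociclib (0.52 ± 0.10, adjusted p = 0.00116), while alisertib gave -0.14 ± 0.091, adjusted p = 0.254. Without ND-646 replicate 1, its highest library, the ND-646 value was 1.00 (adjusted p = 8.21e-05). Against day 7 the same 5 groups stood higher, by 1.38 in ND-646, 1.21 in bleomycin, 0.97 in doxorubicin, 0.96 in TVB-3166 and 0.78 in palbociclib (adjusted p from 6.43e-06 in TVB-3166 to 0.000398 in ND-646). All 10 calls were kept without each library in turn. ELF3-AS1, which overlaps ELF3 by 2519 bases on the other strand, rose with it at a lower level, from 8.53 ± 1.07 CPM at day 0 to 21.6 ± 1.93 CPM in ND-646 (log2 fold change 1.34 ± 0.17, adjusted p = 0.000523), and cannot be told apart from it.

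GRHL2, which holds the junction program of epithelial cells, was higher than day 0 in all 6 drug groups and was called higher than day 7 in TVB-3166. Its replicates gave 37.4, 51.3 and 57.0 CPM in untreated day 0, 62.0, 63.9 and 64.1 CPM in untreated day 7, 54.5, 89.5 and 103 CPM in ND-646 and 88.5, 86.5 and 92.2 CPM in TVB-3166. They gave 56.5, 72.4 and 76.5 CPM in bleomycin, 69.0, 68.3 and 70.0 CPM in alisertib, 68.1, 62.9 and 69.2 CPM in doxorubicin and 65.4, 76.4 and 68.4 CPM in palbociclib. Replicate 1 of untreated day 0 and replicate 1 of ND-646, the libraries that stood apart, held the lowest GRHL2 value of their groups, and ND-646 and bleomycin each overlapped day 0 in 1 library. Compared with day 0 the rise was 0.88 ± 0.14, adjusted p = 0.000281 in TVB-3166 on the log2 scale and 0.76 ± 0.26, adjusted p = 0.0441 in ND-646. The other 4 drug groups rose by 0.47 in doxorubicin to 0.53 in palbociclib (adjusted p = 0.0202 and 0.00971), with 0.50 in bleomycin and 0.50 in alisertib (adjusted p = 0.0357 and 0.0159). Untreated day 7 cells themselves stood 0.39 ± 0.14, adjusted p = 0.143 from day 0, a difference that did not pass the test. With both replicate 1 libraries left out, the ND-646 rise was 0.82 (adjusted p = 2.19e-06).

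The GRHL2 calls depended on single libraries in 4 of the 6 groups. That of ND-646 was lost without any of the 6 libraries but ND-646 replicate 1 (log2 fold changes 0.56 to 0.89, adjusted p = 0.0668 to 0.155) and with no filter on low counts (adjusted p = 0.0521), and that of bleomycin without bleomycin replicate 2 or 3 or day-0 replicate 1 or 2 (log2 fold changes 0.34 to 0.54, adjusted p = 0.0678 to 0.116). The alisertib call was lost without alisertib replicate 3 (log2 fold change 0.50, adjusted p = 0.0595) and the doxorubicin call without doxorubicin replicate 1 or 3 (log2 fold changes 0.44 to 0.45, adjusted p = 0.0591 to 0.0677). Without day-0 replicate 1 the rise was 0.72 in TVB-3166 and 0.34 in bleomycin (adjusted p = 2.59e-05 and 0.0924). Against day 7, TVB-3166 stood at 0.50 ± 0.072, adjusted p = 0.000182, kept without each library in turn. ND-646 stood at 0.38 ± 0.22, adjusted p = 0.216, and at 0.60 (adjusted p = 0.000246) without its replicate 1. GRHL2 has a canonical transcript of 5.23 kb, the longest of the members after TFAP2B at 5.63 kb, and SPDEF has the shortest at 1.91 kb, and the part of transcript length in the ND-646 replicate 1 values was not tested.

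ESRP1, the splicing regulator, was called higher under both FASTIS drugs. Its replicates gave 35.8, 37.5 and 39.7 CPM in untreated day 0, 33.6, 38.2 and 34.8 CPM in untreated day 7, 50.2, 58.9 and 55.5 CPM in ND-646 and 49.6, 53.2 and 46.6 CPM in TVB-3166. All FASTIS libraries lay above all untreated libraries. The other drug groups had means from 39.0 ± 1.74 CPM in doxorubicin to 42.4 ± 4.99 CPM in bleomycin. Compared with day 0 the rise was 0.54 ± 0.14, adjusted p = 0.0158 in ND-646 and 0.41 ± 0.10, adjusted p = 0.00365 in TVB-3166 on the log2 scale, and against day 7 it was 0.63 ± 0.13, adjusted p = 0.00723 and 0.49 ± 0.089, adjusted p = 0.000827. The ND-646 call against day 0 was lost without ND-646 replicate 2 or 3 or day-0 replicate 1 or 2 (log2 fold changes 0.48 to 0.53, adjusted p = 0.0528 to 0.0701), and the other 3 were kept without each library in turn. Against day 0 the other 4 drugs gave log2 fold changes from 0.062 in doxorubicin to 0.18 in bleomycin (adjusted p = 0.598 and 0.245). With the replicate number as a block, ESRP1 also passed the test against day 7 in bleomycin (log2 fold change 0.27 without the block, adjusted p = 0.0436 with it) and in alisertib (0.23, adjusted p = 0.0352), comparisons in which same-numbered libraries deviated together. Palbociclib against day 7 (0.21 ± 0.088, adjusted p = 0.0747) passed the test without day-7 replicate 2 (log2 fold change 0.26, adjusted p = 0.0428).

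**Figure D1:**
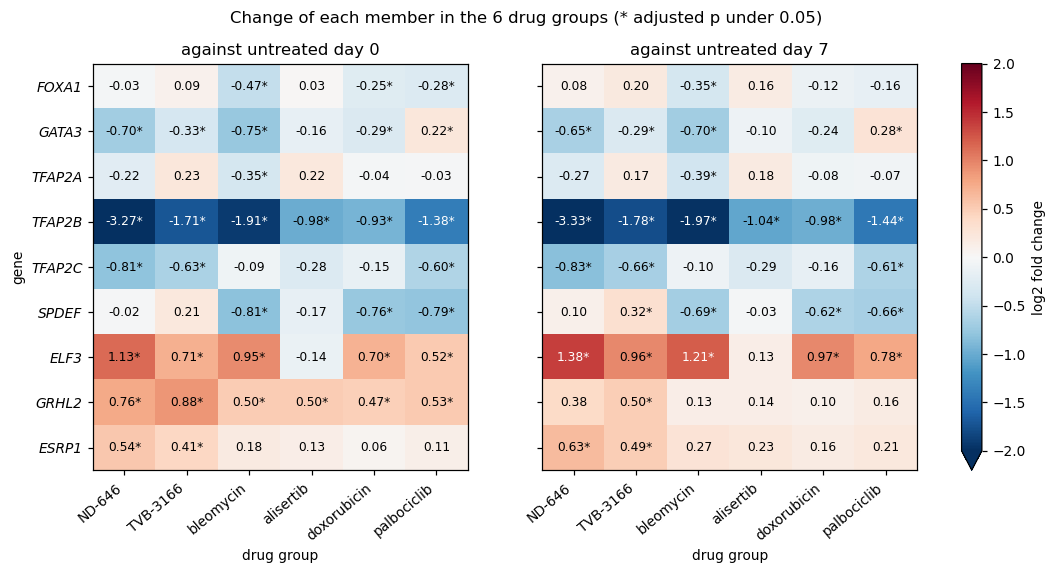
Log2 fold change of the 9 members (rows) in the 6 drug groups (columns) against untreated day 0 (left) and untreated day 7 (right), with an asterisk where the adjusted p was under 0.05 (edgeR) and colors limited to ±2. TFAP2B was lower in every column, ELF3 was called higher in all but alisertib, and GRHL2 carried 6 calls on the left and 1 on the right.

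Counted together, 6 members changed against day 0 in ND-646, 3 higher (ELF3, GRHL2, ESRP1; 19.1% of all genes tested were called higher) and 3 lower (GATA3, TFAP2B, TFAP2C; 18.8% were called lower). With both replicate 1 libraries that stood apart left out, the same 6 were called in ND-646, with log2 fold changes of -0.64 for GATA3, -1.04 for TFAP2C, 0.94 for ELF3 and 0.56 for ESRP1. In TVB-3166 the same 3 members rose and the same 3 fell, where 27.4% and 27.7% of all genes were called. Bleomycin gave 2 higher (background 24.1%) and 5 lower (25.3%), and doxorubicin 2 higher (23.7%) and 4 lower (24.8%). Palbociclib gave 3 higher (26.0%) and 4 lower (27.2%). Alisertib, with GRHL2 higher (17.7%) and TFAP2B lower (19.6%), gave the fewest. The median log2 fold change of the members was -0.35 in bleomycin and 0.21 in TVB-3166, the ends of the 6, against 0.00036 and -0.0071 over all genes. These counts of 9 lie near or above the shares of all genes and, in alisertib, below them, and nothing particular to the members is read from them.

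The comparisons with untreated day 7 share their drug libraries with those above. ND-646 gave 2 higher (background 17.2%) and 3 lower (17.1%), and TVB-3166 4 higher (25.4%) and 3 lower (26.1%). Bleomycin gave 1 higher (22.4%) and 5 lower (23.2%), doxorubicin 1 higher (21.9%) and 2 lower (21.5%), and palbociclib 2 higher (22.0%) and 3 lower (22.9%). In alisertib none was higher (9.55%) and TFAP2B alone was lower (9.49%). With the replicate number as a block, TFAP2C (adjusted p = 0.00672) and ESRP1 were called in alisertib too, which brought its count from 1 to 3. Between untreated day 7 and day 0, edgeR called none of the 9 members (background 0.587% in either direction), with 2 at an unadjusted p under 0.05, ELF3 (-0.24 ± 0.095, adjusted p = 0.161) and GRHL2, and none by DESeq2. The count at an unadjusted p is given without its share over all genes, and nothing is read from it. Over the 8 groups together, all 9 members varied (edgeR's F test), as did 81.6% of all genes, from adjusted p = 7.17e-10 for ELF3 to 0.00308 for GRHL2.

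**Figure D2:**
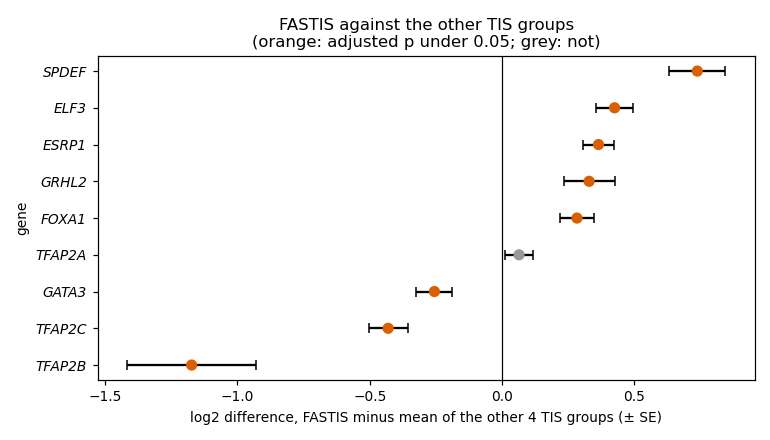
Log2 difference (x axis, ± SE) between the mean of the FASTIS groups and the mean of the other 4 TIS groups for each member (y axis), with orange points at an adjusted p under 0.05. SPDEF lay at the high end and TFAP2B at the low end, and TFAP2A alone did not pass the test.

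The mean of the FASTIS groups differed from the mean of the other 4 TIS groups in 8 of the 9 members. It was higher in SPDEF (log2 difference 0.74 ± 0.11, adjusted p = 2.09e-05), ELF3 (0.43 ± 0.071, adjusted p = 9.06e-05), ESRP1 (0.37 ± 0.06, adjusted p = 8.50e-05), GRHL2 (0.33 ± 0.10, adjusted p = 0.00890) and FOXA1 (0.28 ± 0.064, adjusted p = 0.00152), where 26.1% of all genes were called higher. It was lower in TFAP2B (-1.17 ± 0.24, adjusted p = 0.000703), TFAP2C (-0.43 ± 0.074, adjusted p = 0.000131) and GATA3 (-0.26 ± 0.068, adjusted p = 0.00478), where 24% were called lower. TFAP2A stood at 0.065 ± 0.053, adjusted p = 0.325. SPDEF averaged 328 CPM over the FASTIS libraries and 201 CPM over the others, although alisertib, at 273 ± 18.4 CPM, lay nearer to ND-646 than to bleomycin. In edgeR's pairwise tests, SPDEF in ND-646 was not told apart from bleomycin or alisertib (adjusted p = 0.0549 and 0.581). It was called higher in ND-646 than in doxorubicin and palbociclib (0.0339 and 0.0230). For ELF3 the others averaged 598 CPM against 779 CPM, with alisertib lowest and bleomycin between ND-646 and TVB-3166. In edgeR's pairwise tests, ELF3 in TVB-3166 was not told apart from bleomycin, doxorubicin or palbociclib (adjusted p = 0.15, 0.887 and 0.0815). ELF3 in ND-646 was not told apart from bleomycin or doxorubicin (0.558 and 0.0616). It was higher in ND-646 than in palbociclib (0.0198), and higher in both FASTIS groups than in alisertib (0.000853 and 1.80e-05). TFAP2C in palbociclib was not told apart from ND-646 or TVB-3166 (adjusted p = 0.245 and 0.768), nor was FOXA1 in alisertib (adjusted p = 0.712 and 0.656). FOXA1 in ND-646 was also not told apart from bleomycin, doxorubicin or palbociclib (0.0977, 0.196 and 0.167). In TVB-3166 it was called higher than in those groups (0.00564, 0.00990 and 0.0110). GATA3 averaged 85.0 ± 15.2 CPM in bleomycin, below 88.9 ± 4.88 CPM in ND-646 and 114 ± 8.78 CPM in TVB-3166. Between bleomycin and TVB-3166 the difference was called (adjusted p = 0.0364), and between bleomycin and ND-646 it was not (0.856). GATA3 in TVB-3166 was also not told apart from doxorubicin or alisertib (0.806 and 0.0961). In ND-646 it was called lower than in both (0.0445 and 0.0107). In edgeR's pairwise tests, GRHL2 in ND-646 was not told apart from bleomycin, alisertib, doxorubicin or palbociclib (adjusted p = 0.530, 0.436, 0.349 and 0.477). ESRP1 in bleomycin was not told apart from ND-646 or TVB-3166 (0.168 and 0.132). Nor was TFAP2B in bleomycin (0.121 and 0.701), or TFAP2B in palbociclib from TVB-3166 (0.473). The same 8 members were called without each of the 18 drug libraries in turn, and 7 with a minimum of 10 counts in every library, under which TFAP2B was not tested.

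Between the FASTIS drugs, which block successive enzymes of a single pathway and were given at the same dose, edgeR called none of the 9 members (0.717% of all genes called in either direction). An unadjusted p under 0.05 was reached by 4 of them, a count given without its share over all genes, from which nothing is read. TFAP2B was higher in TVB-3166 by 1.55 ± 0.39, adjusted p = 0.117, TFAP2A by 0.44 ± 0.13, adjusted p = 0.168 and GATA3 by 0.36 ± 0.12, adjusted p = 0.218, while ELF3 stood at -0.42 ± 0.15, adjusted p = 0.235. For each of these 4 genes the 3 libraries of ND-646 lay entirely above or entirely below those of TVB-3166. That adds no further evidence, because the genes were chosen by their p in the same libraries. DESeq2 called 2 of them, TFAP2A and TFAP2B. Without ND-646 replicate 1, edgeR called 4 members, TFAP2A (log2 fold change 0.35, adjusted p = 0.0184), SPDEF (log2 fold change 0.44, adjusted p = 0.0222), GATA3 (log2 fold change 0.33, adjusted p = 0.0424) and ELF3 (log2 fold change -0.30, adjusted p = 0.0498). In that setting 1518 of all genes tested were called, against 98 with every library kept. GRHL2 and ESRP1, at 0.12 ± 0.22, adjusted p = 0.845 and -0.14 ± 0.12, adjusted p = 0.644, were not told apart between the drugs, and a missed threshold does not show that they act alike.

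Ranked by group mean, neighbors rarely differed: of 63 neighboring pairs over the 9 members, 5 passed the test. GATA3 in palbociclib stood above untreated day 0, ELF3 in palbociclib above untreated day 0, and TFAP2B in untreated day 0 above doxorubicin, with the values given above. TFAP2C in alisertib was higher than in palbociclib (adjusted p = 0.0153, with 28.3% of all genes called in that comparison), and SPDEF in alisertib was higher than in doxorubicin (adjusted p = 0.00376, with 25.8% called). ELF3 ran from ND-646 through bleomycin, TVB-3166, doxorubicin, palbociclib, untreated day 0 and alisertib to untreated day 7, and the step from palbociclib to day 0 was the only called step in that order. SPDEF ran from TVB-3166, untreated day 0, ND-646, untreated day 7 and alisertib, with no call between neighbors, down to doxorubicin, palbociclib and bleomycin, again with no call between neighbors. For FOXA1, TFAP2A, GRHL2 and ESRP1 no neighboring pair passed the test, and TVB-3166 held the highest mean of FOXA1 and GRHL2, alisertib of TFAP2A and ND-646 of ESRP1.

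Over the 24 libraries, which share the group differences, the members fell into partly opposed patterns. FOXA1 and SPDEF ran together (Pearson's r = 0.84 of log2 CPM, n = 24), and FOXA1 and TFAP2A less closely (0.64). TFAP2B ran with GATA3 (0.69) and TFAP2C (0.68) and against ELF3 (-0.83) and ESRP1 (-0.82). ELF3 and GRHL2 each ran with ESRP1 (0.66 and 0.64). GATA3 and SPDEF had an r of 0.051. Among 12607 other genes with a mean of at least 1 CPM, the pattern most like ELF3 was that of its overlapping ELF3-AS1 (r = 0.96), followed by PHLDA1 (0.95) and ADGRG1 (0.95). TFAP2B was most like KIF11 (0.96), FAM83D (0.95) and MMP16 (0.95), SPDEF most like JPT2 (0.94), NPDC1 (0.92) and COMMD7 (0.92), and ESRP1 most like HINT3 (0.93), RAB6A (0.91) and CTBP2 (0.91). GATA3 was closest to MCCC2, FAM102B and MAB21L4 (each 0.92), GRHL2 to CHM (0.93), KIAA0355 (0.92) and PI15 (0.91), and TFAP2C to FAM78A (0.90), LINC00324 (0.89) and AVPI1 (0.89). FOXA1 was closest to MVK (0.88), RHOB (0.88) and EMC10 (0.86), and TFAP2A to GSE1 and TTC6 (each 0.83).

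**Figure D3:**
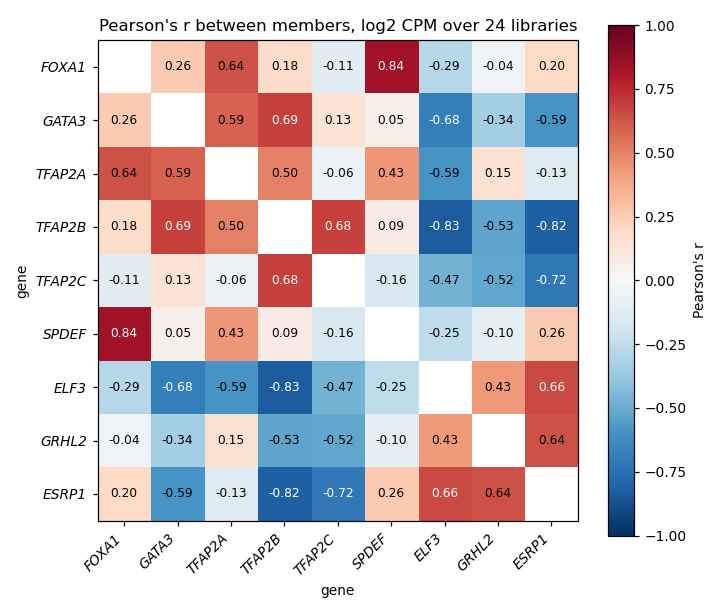
Pearson's r between the members (rows and columns) for log2 CPM over the 24 libraries, which include the differences between groups. FOXA1 and SPDEF formed the closest pair at 0.84, and TFAP2B ran most strongly against ELF3 at -0.83.

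Of 20 other luminal and epithelial regulators in the table, 8 were called in ND-646 against day 0 (5 higher, 3 lower), 11 in TVB-3166 (9 and 2), 12 in bleomycin (5 and 7), 4 in alisertib (2 and 2), 12 in doxorubicin (6 and 6) and 10 in palbociclib (5 and 5). Their median log2 fold change ran from -0.14 in ND-646 to 0.14 in TVB-3166, against 0.018 and -0.0071 over all genes. Of all genes, 17.7% (alisertib) to 27.4% (TVB-3166) were called higher against day 0. The shares called lower were 18.8% (ND-646) to 27.7% (TVB-3166), and the list was not tested as a whole. EHF, an ETS factor close to ELF3, rose in all 6 groups, from 27.1 ± 2.79 CPM at day 0 to 111 ± 7.76 CPM in doxorubicin, with log2 fold changes from 1.53 in ND-646 to 2.04 in doxorubicin, alisertib included (1.69 ± 0.10, adjusted p = 1.84e-05). SOX9, a factor of mammary progenitors, rose in all 6 as well, from 0.69 in alisertib to 2.02 in palbociclib. GATA2, a paralog of GATA3, fell against day 0 in all 6, from -0.57 in doxorubicin to -1.26 in ND-646. Its level was 25.8 ± 1.27 CPM at day 0 and 18.4 ± 4.19 CPM in untreated day 7, and against day 7 the fall passed the test in ND-646 (-0.76 ± 0.20, adjusted p = 0.0186) and TVB-3166 (-0.57 ± 0.17, adjusted p = 0.0147) alone of the 6. Against day 0, KLF4 rose under ND-646 (1.04 ± 0.15, adjusted p = 0.000955) and TVB-3166 (0.99 ± 0.10, adjusted p = 1.67e-05) and fell under palbociclib (-1.54 ± 0.11, adjusted p = 3.45e-06), alisertib (-0.84 ± 0.094, adjusted p = 0.000237) and doxorubicin (-0.29 ± 0.089, adjusted p = 0.0211). In doxorubicin its level was 34.0 ± 1.84 CPM, beside 33.7 ± 1.08 CPM in untreated day 7 and 42.0 ± 1.08 CPM at day 0, and against day 7 the difference did not pass the test (0.04 ± 0.088, adjusted p = 0.739).

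Among 17 luminal markers, the genes called against day 0 went both ways in every drug group, from 7 higher and 4 lower in ND-646 to 7 and 7 in palbociclib. The keratins KRT8 and KRT19 fell in all 6 groups (-1.20 and -1.49 in bleomycin), whereas the secreted products PIP, SCGB2A2 and AZGP1 rose in all 6 (4.35, 3.25 and 1.74 in TVB-3166) and TFF1 fell (-1.80 in TVB-3166). In untreated day 7 KRT8 stood at 4054 ± 541 CPM, KRT19 at 2104 ± 388 CPM and TFF1 at 1.98 ± 0.792 CPM, from 4.73 ± 1.52 CPM for TFF1 at day 0. Against day 7, KRT8 was called lower in all groups but palbociclib, KRT19 in bleomycin alone and TFF1 in ND-646, bleomycin and palbociclib. Of 22 epithelial junction genes, 10 rose and 1 fell against day 0 in ND-646, 10 and 2 in TVB-3166, 6 and 3 in bleomycin, 6 and 6 in alisertib, 5 and 4 in doxorubicin and 4 and 4 in palbociclib. Against day 7 the counts were 12 and 0 in ND-646, 14 and 1 in TVB-3166, 10 and 1 in bleomycin, 7 and 0 in alisertib, 11 and 2 in doxorubicin and 9 and 3 in palbociclib. Beside both lists, 17.7% (alisertib) to 27.4% (TVB-3166) of all genes were called higher against day 0. For lower calls the shares were 18.8% (ND-646) to 27.7% (TVB-3166). Against day 7 the shares ran from 9.55% (alisertib) to 25.4% (TVB-3166) higher and from 9.49% to 26.1% lower in those groups. Neither list was tested as a whole. The median log2 fold change of the junction genes against day 0 ran from -0.068 in palbociclib to 0.31 in ND-646, and that of the luminal markers from -0.17 in palbociclib to 0.24 in TVB-3166. PRSS8, a membrane protease, and CLDN4, a tight junction protein, rose in all 6 groups, by 2.63 and 1.5 in ND-646. OCLN, also of tight junctions, rose in ND-646 (0.96) and in all other groups but palbociclib (0.28 ± 0.15, adjusted p = 0.151), and PKP3, of desmosomes, fell in all 6 (-0.67 in ND-646).

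Markers of other cell states moved with the drug groups as well, and their part in the members' changes was not tested. Calls here are against day 0 unless day 7 is named. Of 9 basal and myoepithelial genes in the table, 7 rose in ND-646, 5 in TVB-3166, 9 in bleomycin and in doxorubicin, 6 in palbociclib and 2 of 8 tested in alisertib, and none was called lower. Against day 7, alisertib had 4 of 8 tested called higher (9.55% of all genes) and 1 lower (9.49%). The other groups had 7 higher in ND-646 (17.2%), 6 of 8 tested in TVB-3166 (25.4%) and 9 in bleomycin (22.4%). Doxorubicin had 8 (21.9%) and palbociclib 6 (22.0%), and none was called lower in these groups. Of all genes, 17.7% (alisertib) to 27.4% (TVB-3166) were called higher against day 0. The shares called lower were 18.8% (ND-646) to 27.7% (TVB-3166). The summed level of the 9 genes was 120.4 to 147 CPM in the day-0 libraries, 152 to 162 CPM at day 7, 182 to 262 CPM in ND-646, 148 to 172 CPM in TVB-3166, 279 to 343 CPM in bleomycin, 121 to 147 CPM in alisertib, 261 to 339.7 CPM in doxorubicin and 199 to 236 CPM in palbociclib. KRT5, KRT14 and KRT6A of this list are not analysed here. The median log2 fold change of the basal genes ran from 0.75 in alisertib to 2.57 in doxorubicin. Most stood at low levels: OXTR went from 2.85 ± 0.420 CPM at day 0 to 13.0 ± 1.63 CPM in doxorubicin, CAV1 from 5.41 ± 2.16 to 33.0 ± 5.02 CPM in palbociclib and ACTA2 from 0.802 ± 0.475 to 10.0 ± 1.40 CPM in doxorubicin. Of 16 mesenchymal genes listed, 4 were in the table, VIM and ZEB1 not among them, so most of the list was not surveyed. Of the 4, FN1 rose in bleomycin, doxorubicin and palbociclib (to 585 ± 126 CPM from 74.9 ± 36.1 CPM at day 0). Against day 7, 1 was called higher and 2 lower in ND-646 (17.2% and 17.1% of all genes). TVB-3166 gave the same counts against day 7 (25.4% and 26.1%). The summed level of the 4 genes was 54.7 to 119.9 CPM at day 0 and 90.3 to 110 CPM at day 7. It was 91.0 to 183 CPM in ND-646, 97.6 to 147 CPM in TVB-3166 and 81.5 to 98.5 CPM in alisertib. Bleomycin gave 150 to 268 CPM, doxorubicin 285 to 436 CPM and palbociclib 476 to 730.1 CPM. In palbociclib most of the sum was FN1. SNAI1, a repressor of epithelial genes, fell in ND-646 (-1.65 ± 0.27, adjusted p = 0.00169) and TVB-3166 (-1.61 ± 0.35, adjusted p = 0.00245) and in palbociclib (-0.87 ± 0.22, adjusted p = 0.00696). TCF4 fell in ND-646, TVB-3166 and bleomycin, and COL1A1 in bleomycin, doxorubicin and palbociclib. CD68, a macrophage and lysosome gene, was the only listed gene of cells foreign to the culture in the table, and went from 5.40 ± 1.04 CPM at day 0 to 46.7 ± 6.85 CPM in ND-646.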

How the data were processed

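RNA of SKBr3 cells was sequenced by an outside provider, and the authors deposited raw read counts per gene for 24 libraries. HISAT2, StringTie and the build GRCh37 are named in the submitters' processing notes. The labels and the study's methods name different stranded kits, and the strand setting of the counting is not given in the sources used here. The table held 14493 genes with a lowest count of 1 in any library, and totals of 29405121 to 44316330 counts. Intervals from the tests cover the spread between libraries.

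Counts were compared in pairs of groups with edgeR 4.0.16 under R 4.3.3 (filterByExpr, TMM, quasi-likelihood test, two-sided), with Benjamini-Hochberg adjustment over all genes tested and a call at an adjusted p under 0.05. FASTIS was compared with the other 4 TIS groups in a fit of the 18 drug libraries, and all 8 groups with an F test. The scripts were tested on simulated counts. Log2 CPM used a prior count of 2. The members and gene lists were chosen with earlier results of these data known. Every member is named, with up to 4 genes per list (those called in the most drug comparisons with day 0, ties by mean absolute log2 fold change), the 3 genes most correlated with each member, and genes checking the cell line. Some genes that this rule names are not reported here. Same-numbered libraries deviated together, with all 3 correlations over 0.1, in bleomycin and alisertib against day 7 and TVB-3166 against ND-646 (0.10 to 0.38), and in none of the other 11 comparisons. This pairing comes from the data, not from the labels. Alternatives were DESeq2 1.42.0, RLE size factors, other filters, a rule of fold change and unadjusted p, the replicate number as a block, all 24 libraries in a single fit and leaving out each library. Leaving out both libraries that stood apart, and DESeq2 for the order of levels, were chosen after seeing the data.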

Additional observations from a re-analysis of the deposited data

Results flagged for a closer look

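The difference between FASTIS and the mean of the other 4 TIS groups, tested directly with edgeR, passed the test for 8 members. On the log2 scale the difference was 0.28 for FOXA1, -0.26 for GATA3, -1.17 for TFAP2B, -0.43 for TFAP2C, 0.74 for SPDEF, 0.43 for ELF3, 0.33 for GRHL2 and 0.37 for ESRP1. GATA3 also differed between palbociclib, where it stood above day 0, and the 4 groups where it stood below: the log2 fold change was 0.92 against ND-646, 0.56 against TVB-3166, 0.98 against bleomycin and 0.52 against doxorubicin. Of all genes, 25.2%, 40.2%, 30.6% and 25.0% were called in these comparisons. The call of GATA3 in palbociclib above day 0 was lost without any palbociclib library or day-0 replicate 2 or 3. All 3 palbociclib libraries lay above all libraries of these 4 groups.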

How the results depend on the processing

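No called fold change of a member reversed under any alternative. Of 1644 member fold changes recomputed, 1502 kept their side of the threshold, 108 lost their call and 34 gained one. Of the 1502, 24 changed sign without a call in either setting. Over 14 comparisons there were 61 calls of members, of which 44 were kept without each library in turn. The rule of a fold change of at least 2 with an unadjusted p under 0.05 left 2 members against day 0 in ND-646, 1 in TVB-3166, 1 in bleomycin, 0 in alisertib, 0 in doxorubicin and 1 in palbociclib, and against day 7 it left 2 in ND-646, 1 in TVB-3166, 2 in bleomycin, 0 in doxorubicin and 1 in palbociclib, with 1 between TVB-3166 and ND-646. This rule adds a fold change but drops the adjustment of p, so its counts can be lower or higher than those of the main test. DESeq2 called 2 members in alisertib against day 7 and 2 between TVB-3166 and ND-646, and the single fit of all 24 libraries called 4 in the latter. With the replicate block, alisertib against day 7 gave 3 members, and the other paired comparisons gave 7 (bleomycin against day 7) and 0 (TVB-3166 against ND-646). Where the numbers did not pair the libraries, the block gave 1 member, GRHL2, between day 7 and day 0. Without each library in turn, the members called numbered 1 to 4 in alisertib and 3 to 7 in doxorubicin against day 0, 0 to 2 in alisertib and 2 to 5 in doxorubicin against day 7, and 0 to 4 between TVB-3166 and ND-646. Over all genes the calls numbered 3128 to 5205, 5108 to 6758, 1062 to 2800, 4442 to 6080 and 0 to 1518 in the same order. A member count without its count over all genes here or below, as in bleomycin with the block, is not read as a result. The cause of these changes was not tested.

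Counts over all genes moved as well. ND-646 against day 0 gave 5157 calls, 7878 with all 24 libraries in a fit and 8177 without both replicate 1 libraries, and against day 7 it gave 4692, 7059 with all 24 and 2714 to 7618 without each library. Day 7 against day 0 gave 80, 1131 with DESeq2, 0 without a filter, 1263 with the block, 441 with all 24 libraries and 0 to 94 without each library. Alisertib against day 7 gave 2627, 4141 with the block, 1141 with all 24 and 1062 to 2800 without each library, and TVB-3166 against ND-646 gave 98, 753 with DESeq2, 32 without a filter, 310 with the block, 1268 with all 24 and 1518 without ND-646 replicate 1. The fold rule cut the calls against day 0 to 2821 in ND-646, 2413 of 7536 in TVB-3166, 2585 of 6790 in bleomycin, 1088 of 5135 in alisertib, 1783 of 6686 in doxorubicin and 2292 of 7318 in palbociclib. Against day 7 it left 2379 in ND-646, 1839 of 7079 in TVB-3166, 1952 of 6294 in bleomycin, 451 in alisertib, 1214 of 6015 in doxorubicin and 1547 of 6178 in palbociclib, and it gave 271 between the untreated days and 429 between TVB-3166 and ND-646. By Spearman's correlation, 0 to 2 of the 3 genes most like a member remained. Low counts limit TFAP2B, with 5 to 14 reads in ND-646.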
